A study of Mus musculus with 8 samples.

Results

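The 4 control arrays of the series, of 8 in all, give the transcriptome of skin tumour epithelial cells that kept Twist1 and p53. They are the arrays titled as controls in both experiments of the study, and the 4 arrays of cells with a deletion were not used. Tumours had been induced in mice with DMBA, a carcinogen, and TPA, a tumour promoter. The control mice carried floxed alleles but, in the genotypes given, no K14CreER transgene: Twist1fl/fl for the Twist1 controls (2 arrays) and Twist1fl/fl:p53fl/fl for the Twist1/p53 controls (2 arrays). They received 5 doses of 2 mg tamoxifen, as the deletion mice did, and were littermates of mixed strain background. Live tumour cells were sorted with Epcam as the positive marker and CD45, CD31 and CD140a to remove lineage cells, and total RNA was hybridised to Affymetrix mouse genome arrays. Whether an array holds RNA of 1 mouse or a pool, and how far the tumours had progressed, is not stated by the labels.

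Skin squamous tumours keep much of the plan of the epidermis. Proliferating cells that express keratins 5 and 14 attach to the basement membrane through hemidesmosomes. Cells that leave this layer switch to keratins 1 and 10 and then build the cornified envelope, a crosslinked protein shell. In wounds and in hyperproliferative skin, keratins 6, 16 and 17 are made as well. Epithelial tumour cells can also turn on transcription factors of epithelial-mesenchymal transition (EMT), of which Twist1 is one, and then lose junctions and gain mesenchymal proteins.

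Each experiment was deposited as a table of its own, on a different array type, so a level in one table cannot be set against a level in the other. Within each table the probe sets were therefore ranked by the mean log2 signal of the 2 control arrays, and the rank was written as a percentile from 0 (lowest) to 100 (highest). The 2 tables shared 44979 probe sets, and 16551 genes had a probe set with the same single symbol in both. A gene was called high at percentile 90 or above in both tables. It was called background where its signal in both tables lay at or under a level set by receptor probe sets. The level is the 90th percentile of the probe sets for olfactory, vomeronasal and trace amine receptors, which skin epithelium is not expected to use. That level was 4.79 in the Twist1 table and 4.01 in the Twist1/p53 table. The signal of a probe set also depends on its probes, so an order of genes is an order of signals and not of transcripts per cell. With 1 control group of 2 arrays per table no test exists, and all that follows is description. The array values of a gene are given in the order Twist1 control 1, Twist1 control 2, Twist1/p53 control 1, Twist1/p53 control 2.

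Of the 16551 genes, 1736 (10.5%) were high in both tables, 8257 (49.9%) were intermediate in both, 2856 (17.3%) were at background in both, and 3702 (22.4%) fell in different classes. Nearly all of the last group moved by 1 class: 1670 were at background in the Twist1 table and intermediate in the other, 728 were the reverse, 715 were high in the Twist1 table only, and 587 were high in the Twist1/p53 table only. A pair of genes went from background in the Twist1 table to high in the other, and 0 went the opposite way. The control means of the 2 tables correlated across genes with r = 0.914 (Spearman's rho 0.904). The 2 arrays of a table correlated with r = 0.991 for the Twist1 controls and 0.997 for the Twist1/p53 controls. Genes within 1 sample are not independent, and all of these values share the pull of probe strength. At the edge of the high class, Ociad2 lay just inside with percentiles of 90.01 and 91.26, and Prim1 lay just outside with 92.70 and 89.97.

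**Figure D1:**
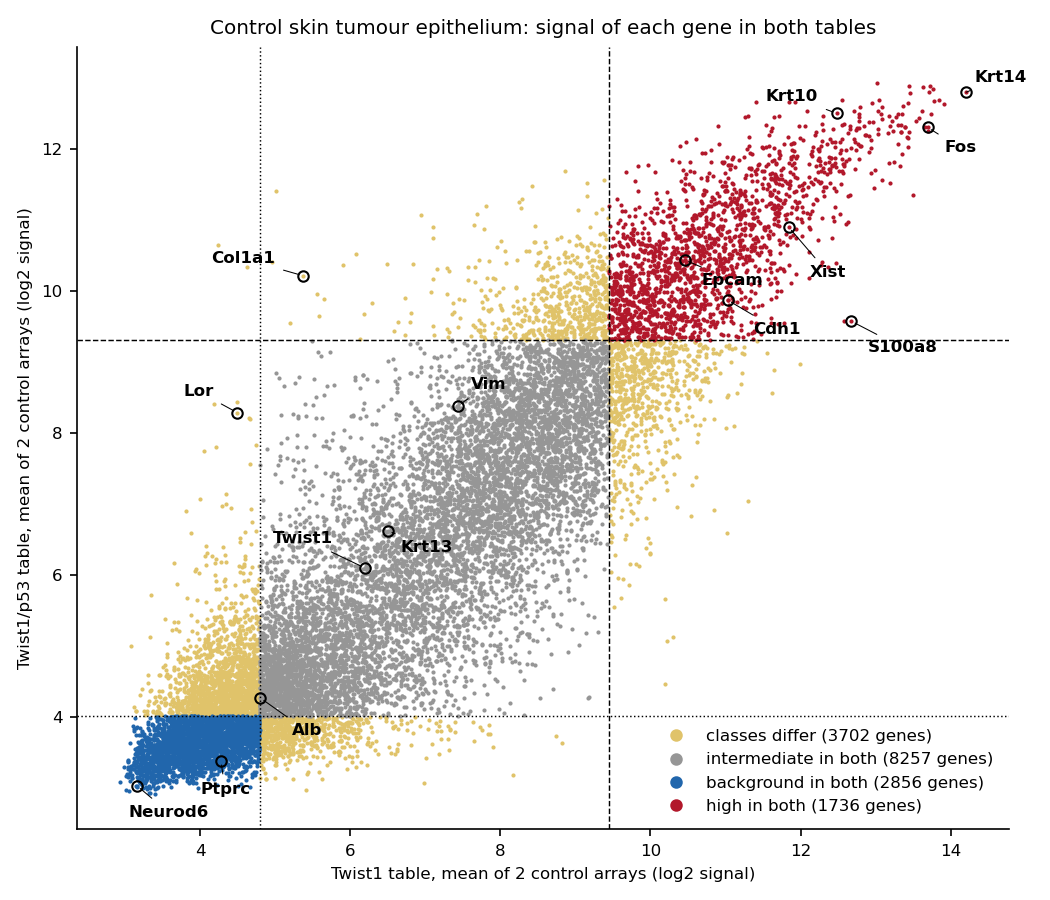
Each point is a gene, with the mean log2 signal of the 2 Twist1 control arrays on the horizontal axis and of the 2 Twist1/p53 control arrays on the vertical axis. Dotted lines mark the background level (4.79 and 4.01) and dashed lines the level at percentile 90 (9.44 and 9.31), and colours show the 4 classes, with 1736 genes high in both tables.

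The genes of the sort markers were read in the arrays. What the sort changed was not tested, because no array of unsorted cells was used. Epcam, the adhesion protein used to collect the cells, read 10.38, 10.54, 10.42 and 10.46 and was high in both tables. Ptprc, which encodes the leukocyte protein CD45, read 4.06, 4.49, 3.26 and 3.49 and lay at background in both tables. Pdgfra, which encodes CD140a of fibroblasts, read 4.63, 4.68, 3.62 and 3.83 and was at background as well. Pecam1, the gene of the endothelial protein CD31, read 4.93, 4.74, 5.10 and 5.07, with means of 4.84 and 5.09 against background levels of 4.79 and 4.01. It was thus just above background in the Twist1 table and over 1 log2 unit above it in the Twist1/p53 table, at percentiles 38.6 and 53.7.

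The highest signals came from keratins and the protein synthesis machinery. Of the 100 genes with the highest mean percentile, 29 encoded ribosomal proteins. Krt14, the type I keratin of basal cells, ranked first of all genes with 14.27, 14.15, 12.81 and 12.79. Krt5, its type II partner, was sixth with 13.67, 13.59, 12.85 and 12.89. Krt6a and Krt6b, made in wounds and hyperproliferative epidermis, stood among the first 8 genes, and Krt6a read 13.75, 13.70, 12.90 and 12.89. Among the 25 highest genes outside the ribosomal proteins were also Krt16, the translation factors Eef1a1, Eif5a, Eef2 and Eef1b2, and the cytoskeletal genes Actb, Actg1, Tmsb10 and Dynll1. Fabp5, a fatty acid binding protein of keratinocytes, averaged 13.91 on the Twist1 controls and read 12.67 and 12.61 on the others. Fos, a subunit of the transcription factor AP-1, was 19th with 13.79, 13.60, 12.34 and 12.27. The rest of the 25 were Txn1, Dmkn, Serbp1, Ldha, Itm2b, Hspa8, Cox6a1, Perp, Cstb and Cox7a2, which span redox balance, epidermal secretion, glycolysis, protein folding, respiration, desmosomes and protease inhibition. Every one of the 25 lay above percentile 99 in both tables.

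The keratins sorted into clear levels. All 3 basal keratins (Krt5, Krt14 and Krt15) were high in both tables, and Krt15, a keratin of quiet basal and follicle cells, was the lowest of them with 9.58, 10.39, 9.70 and 9.58. Of 5 measured genes on the list of wound and hyperproliferation keratins, Krt6a, Krt6b and Krt16 were high. The 2 intermediate ones were Krt75 and Krt79, the latter a keratin of the follicle duct and sebaceous gland. Krt17, a further member of this group that is named in the Twist1 annotation only, read 12.20, 11.54, 11.45 and 11.33 and would have been high. Of 6 differentiation keratins, Krt1 and Krt10 were high, Krt78 and Krt80 were intermediate, Krt77 fell in different classes, and Krt2, a keratin of late differentiation, was at background. Krt10 read 12.48, 12.48, 12.46 and 12.55 and Krt1 read 12.01, 11.83, 12.67 and 12.65, and both ranked above percentile 98 in each table. Keratins of simple and mucosal epithelia had no high member among 8, beside 10.5% of all genes. Krt8 read 5.10, 5.82, 4.53 and 4.32 and Krt19 read 4.41, 4.79, 3.91 and 3.92, which placed the first low in the intermediate range and the second at background. Hair and nail keratins also had no high member among 12, with 6 intermediate and 3 at background.

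The bases just before the start sites of 4 of these highly read genes are shown because genes of like signal differ there. Each stretch is the 60 bases before the RefSeq transcript start (assembly GRCm38.p6), written 5′ to 3′ on the strand of the gene, with TATAAA in capitals where it lies 40 to 20 bases before the start.
Krt14 (chr11:100206031-100206090, minus strand): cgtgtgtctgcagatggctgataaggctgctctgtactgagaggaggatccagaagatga
Krt10 (chr11:99389365-99389424, minus strand): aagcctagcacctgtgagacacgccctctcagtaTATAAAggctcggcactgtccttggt
Fos (chr12:85473830-85473889, plus strand): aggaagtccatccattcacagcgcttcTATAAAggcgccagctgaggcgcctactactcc
Rpsa, a ribosomal protein gene (chr9:120127706-120127765, plus strand): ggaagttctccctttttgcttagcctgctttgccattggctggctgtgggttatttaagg
Krt10 and Fos hold TATAAA in that window, at -26 and -33 from the start, whereas Krt14 and Rpsa do not hold these letters there.

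Cornified envelope genes covered the whole range of signals. Of 35 measured, 9 were high in both tables, 10 intermediate, 2 at background and 14 in different classes. The shares of all genes in these classes were 10.5%, 49.9%, 17.3% and 22.4%. The high ones were the small proline-rich proteins Sprr1a, Sprr1b, Sprr2d, Sprr2f and Sprr2h, the secreted proteins Dmkn, Sbsn and Krtdap, and Tgm1, the membrane-bound transglutaminase that crosslinks the envelope. Krtdap read 13.19, 13.20, 11.53 and 11.52, and Sprr1b read 12.45, 12.19, 11.59 and 11.77. Ivl, an early scaffold of the envelope, was intermediate with 8.25, 8.52, 8.36 and 8.50. Several late members read differently in the 2 tables. Lor, the main protein of the mature envelope, read 4.43, 4.56, 8.01 and 8.57, at percentiles 30.4 and 82.9. Flg, which bundles keratin filaments in the outermost living cells, read 3.32, 3.37, 5.54 and 5.90, at percentiles 3.23 and 60.6. Rptn, a protein of the same family as Flg, read 4.09, 4.01, 7.17 and 8.32. These 3 genes were at background on both Twist1 controls and clearly above background on both Twist1/p53 controls. Hrnr, another family member, was at background in both tables.
Lor (chr3:92083143-92083202, minus strand): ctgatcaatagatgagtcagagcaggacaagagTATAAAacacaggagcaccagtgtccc
The Lor stretch, in the same form as the others and shown as that of the main late gene, holds TATAAA at -27 and, further from the start, TGAGTCA, the letters that AP-1 binds.

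Proteases and inhibitors of the epidermis act in its maturation and shedding. Of 20 measured epidermal proteases and inhibitors, 9 were high, 5 intermediate and 6 in different classes, beside 10.5%, 49.9% and 22.4% of all genes. Serpinb5, an inhibitor-like serpin of epithelia, read 11.82, 11.77, 11.53 and 11.56 and Stfa3, a cysteine protease inhibitor, read 12.94, 12.22, 11.80 and 11.78. Casp14, the protease that helps to break down filaggrin, read 6.16, 6.21, 9.57 and 9.79, at percentiles 60.2 and 92.1. Asprv1, the retroviral-like protease of the granular layer, read 8.21, 8.63, 11.45 and 11.51. Both, named after their values were seen, were intermediate on the Twist1 controls and high on the Twist1/p53 controls. Serpinb12, the lowest of the list, read 4.67, 4.68, 6.55 and 6.32 and was higher in rank on the Twist1/p53 controls as well.

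**Figure D2:**
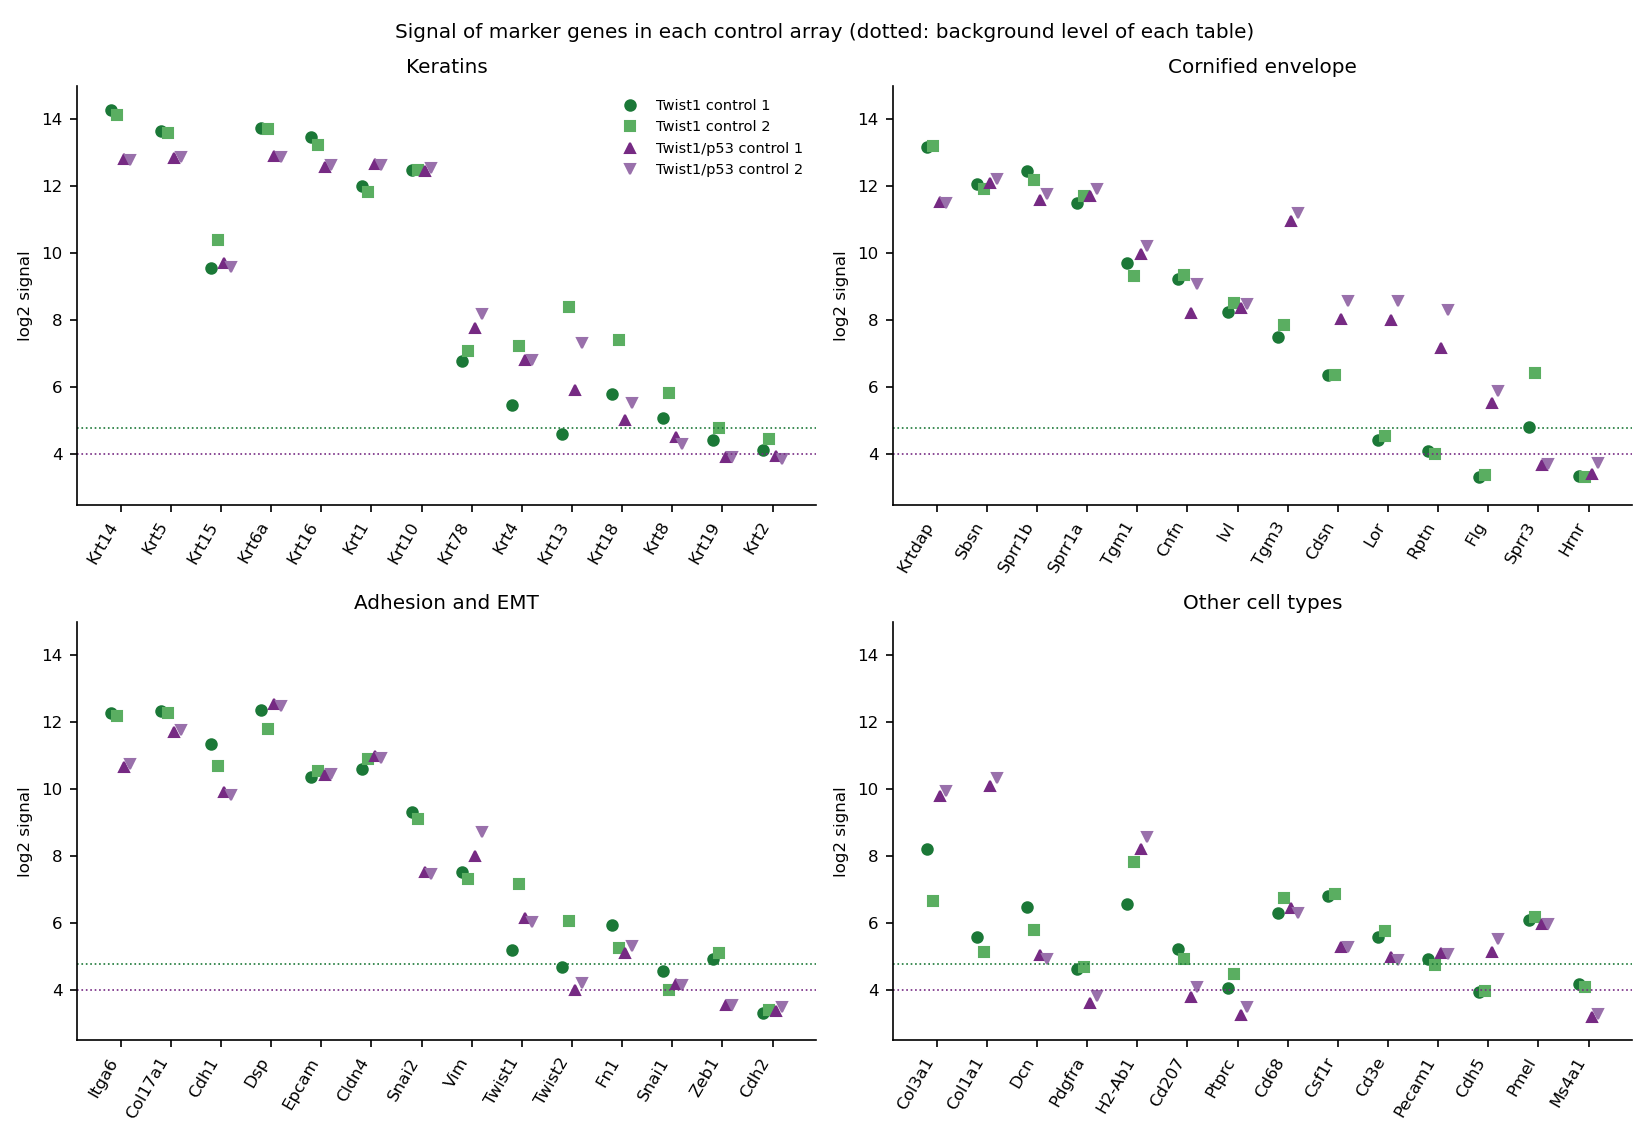
Log2 signal of 14 genes per panel in each of the 4 control arrays, with dotted lines at the background level of each table (4.79 and 4.01). Krt14, Krt5, Krt6a and Krt16 lie above 12 on all arrays, Lor, Rptn and Flg lie above background on the Twist1/p53 controls only, and Ptprc and Pdgfra lie at background in both tables.

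Genes of adhesion to the basement membrane had the largest share of high genes among the 3 adhesion lists. Of all genes 10.5% were high, 49.9% intermediate, 17.3% at background and 22.4% in different classes. Of 16 measured genes of hemidesmosomes, integrins and laminin-332, 12 were high and 4 intermediate. Col17a1, a transmembrane collagen of hemidesmosomes, read 12.33, 12.28, 11.70 and 11.77. Itga6, a subunit of the integrin that anchors basal cells, read 12.28, 12.19, 10.68 and 10.76, and its partner Itgb4 read 10.88, 10.68, 10.77 and 10.73. Itga5, the fibronectin receptor subunit, was the lowest with 5.85, 5.73, 5.55 and 5.61. Of 18 desmosome and adherens junction genes, 9 were high, 4 intermediate and 5 in different classes. Cdh1, which encodes E-cadherin, read 11.37, 10.69, 9.92 and 9.82 and Dsp, which links desmosomes to keratin, read 12.37, 11.80, 12.56 and 12.50. Pkp2, a plakophilin of simple epithelia and heart, was the lowest with 5.30, 4.38, 3.45 and 3.43. Of 17 tight and gap junction genes, 5 were high, 7 intermediate, 1 at background and 4 in different classes. The gap junction genes Gja1 (12.82, 12.64, 12.10 and 12.09) and Gjb2 (12.48, 12.61, 12.13 and 12.14) led this list, and Cldn6, an embryonic claudin, closed it at background.

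Epithelial transcription factors set the identity of keratinocytes. Of 25 measured, 8 were high, 9 intermediate, 0 at background and 8 in different classes. The shares of all genes in these classes were 10.5%, 49.9%, 17.3% and 22.4%. Klf4, a factor of the suprabasal programme, read 12.65, 12.18, 12.10 and 12.11. Trp63, the master regulator of stratified epithelia, read 11.69, 11.37, 10.37 and 10.24. Elf5, a factor of glandular epithelia, was the lowest with 5.32, 5.37, 4.25 and 4.29, which is still above background in both tables.

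Of 11 measured regulators of EMT, 0 were high, 6 intermediate and 5 in different classes. Of all genes 10.5% were high, and 0 in a list of this length is near that share. The median percentile of the list was 41.6 beside 61.5 over all genes. Snai2, which is also a normal factor of basal keratinocytes, read 9.33, 9.10, 7.53 and 7.47 and was the highest of the zinc-finger factors on the list. Twist1, the gene that the study deletes, read 5.20, 7.18, 6.15 and 6.04. It was above background on all 4 arrays, and the second Twist1 control was 1.97 log2 units above the first, while the Twist1/p53 controls were close to each other. Snai1 read 4.58 and 4.02 on the Twist1 controls and averaged 4.18 on the Twist1/p53 controls, and Zeb1 read 4.95, 5.11, 3.56 and 3.57, so the former was above background in the Twist1/p53 table only and the latter in the Twist1 table only. Of 14 mesenchymal genes, 3 were high, 5 intermediate, 3 at background and 3 in different classes. The high ones were Sparc, a matrix glycoprotein, S100a4, a calcium-binding protein of motile cells, and Tnc, a matrix protein of wounds and tumours. Sparc read 11.28, 11.01, 11.19 and 11.25 and Tnc read 9.73, 9.67, 9.82 and 9.86. Vim, the intermediate filament of mesenchymal cells, was intermediate with 7.55, 7.32, 8.02 and 8.74. Cdh2, which encodes N-cadherin, read 3.32, 3.42, 3.37 and 3.51, and Cdh2, Cdh11 and Fap were all at background.

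Markers of other cell types had few high members, and some differed between the tables. Of all genes 10.5% were high, so 0 high genes in a short list is near the share of all genes. Of 15 fibroblast markers, 0 were high, 7 intermediate, 4 at background and 4 in different classes. Col1a1, the main collagen of dermis, read 5.59, 5.15, 10.10 and 10.33, at percentiles 49.1 and 94.6. Col3a1, another fibrillar collagen, read 8.21, 6.68, 9.81 and 9.96. Both were higher in rank on the Twist1/p53 controls, whereas Dcn, a proteoglycan of fibroblasts, read 6.50, 5.79, 5.04 and 4.92 and was not. In a bulk sample, fewer cells of a type and less RNA per cell cannot be told apart. Of 15 endothelial markers, 0 were high, 9 intermediate and 3 at background, and Egfl7 was the highest with 7.47, 7.16, 6.29 and 6.39. The 7 leukocyte lists together held 66 genes, of which 3 were high, 28 intermediate, 16 at background and 19 in different classes. The 3 high ones were S100a8, S100a9 and Mfge8, which keratinocytes are known to make too. Itgb2 and Ms4a1, markers of all leukocytes and of B cells, were at background. Csf1r, the receptor of macrophages, read 6.80, 6.88, 5.28 and 5.29 and Cd3e, part of the T cell receptor complex, read 5.59, 5.77, 5.00 and 4.90, both intermediate. Cd207, the marker of Langerhans cells, read 5.22, 4.94, 3.81 and 4.11. Of 8 melanocyte markers, 0 were high and 5 intermediate, led by Pmel with 6.11, 6.19, 5.99 and 5.99. Markers of Schwann cells (4 measured), pericytes and muscle (10), red cells (4) and mast cells (8) had 0 high members, beside 10.5% of all genes. The red cell list does not hold the globin genes Hba-a2 and Hbb-b2. On the Twist1/p53 controls Hba-a2 read 11.43 and 11.38, and Hbb-b2 read 8.09 and 9.46. Sebocyte and adipocyte genes had 6 high members among 10, but Adipoq, which fat cells alone secrete, was at background with 3.61, 3.57, 3.53 and 3.61. The part of other cells in these values was not tested.

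Genes of tissues absent from skin showed how low an intermediate call can reach. Of 61 measured genes of liver, brain, pancreas and gut, retina and testis, and heart, 0 were high, 18 were intermediate, 24 at background and 19 in different classes. Of all genes 10.5% were high and 17.3% at background. Apoa2, an apolipoprotein of liver, read 5.24, 5.42, 5.83 and 5.88 and was intermediate. An intermediate signal of that size therefore does not by itself show a cell type. The highest member was Tnnt2, the troponin T of heart muscle, with 8.43, 8.47, 8.48 and 8.56. The next, Myl7, read 5.62, 5.96, 6.06 and 5.77.

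**Figure D3:**
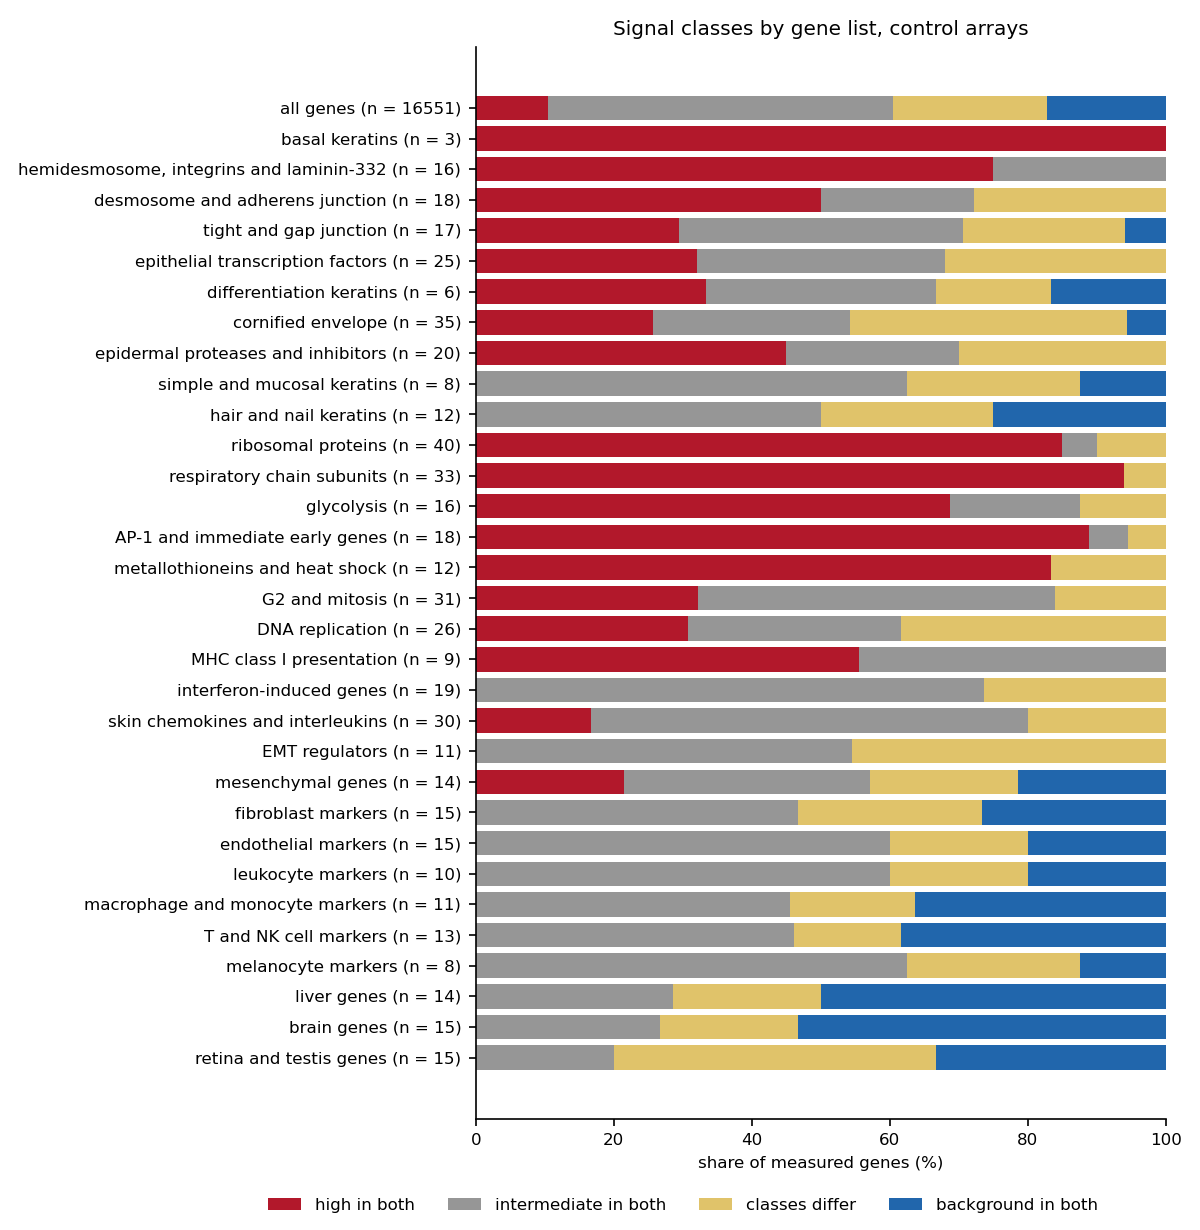
Share of the measured genes of each list (in %) that were high in both tables, intermediate in both, in different classes, or at background in both, with the number of genes in brackets and all 16551 genes on top. Basal keratins, respiratory chain subunits, AP-1 and ribosomal protein genes are mostly high, and lists of liver, brain, retina and testis have 0 high genes.

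Among the signalling lists, AP-1 and immediate early genes had the largest share of high members. Of all genes 10.5% were high and 49.9% intermediate. The part of cell sorting in these signals was not tested. Of 18 AP-1 and immediate early genes, 16 were high, 1 intermediate and 1 in different classes, with a median percentile of 97.5. Dusp1, a phosphatase that is switched on with Fos, read 13.08, 12.99, 12.21 and 12.22, and Egr3, the lowest of the list, read 6.96, 7.02, 7.20 and 7.35. Of 12 EGF receptors and ligands, 4 were high: the ligands Hbegf, Ereg and Epgn, and the receptor Erbb3. Hbegf read 12.48, 12.30, 11.70 and 11.73 and Ereg read 11.90, 11.28, 11.28 and 11.42. Egfr itself read 7.38, 7.53, 9.61 and 9.62, at percentiles 72.7 and 91.8, and was high in the Twist1/p53 table only. The classic ligand Egf read 4.38, 4.96, 4.19 and 4.34, at background in the Twist1 table and just above it in the other. Of 16 RAS and MAPK genes, 5 were high and 8 intermediate, led by Phlda1 and Dusp6, which are induced by this pathway. Dusp6 read 11.35, 11.87, 9.66 and 9.59.

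Other signalling pathways had fewer high members than AP-1. Of all genes 10.5% were high, 49.9% intermediate, 17.3% at background and 22.4% in different classes. The shares of high genes on the Notch and Wnt lists, 14.3% and 8.0%, were near that of all genes. Of 14 Notch pathway genes, 2 were high, 9 intermediate and 3 in different classes. Notch1, the receptor that drives epidermal differentiation, read 11.13, 11.53, 11.02 and 10.85, and Notch4, an endothelial receptor, was the lowest with 4.13, 4.54, 4.12 and 4.10. Of 25 Wnt pathway genes, 2 were high, 17 intermediate, 2 at background and 4 in different classes. Wnt4 was the highest ligand with 10.89, 10.99, 10.84 and 10.74 and Fzd6 the highest receptor with 10.31, 10.21, 9.71 and 9.62. Axin2, a feedback target of beta-catenin, read 7.04, 6.52, 4.88 and 4.75, and Lef1, its partner in hair follicles, was at background with 4.06, 4.81, 4.00 and 3.64. Of 22 TGF-beta and BMP pathway genes, 5 were high, 10 intermediate, 1 at background and 6 in different classes. Fst, a secreted inhibitor of activins, led with 11.11, 11.74, 11.67 and 11.78. Smad4, the common mediator of both branches, read 10.60, 10.54, 10.03 and 9.98. Among the ligands, Tgfb1 read 7.20, 7.46, 7.10 and 7.35 and Tgfb2 read 5.06, 5.13, 5.60 and 5.91, so the first ranked above the second in both tables. Of 9 genes of the insulin-like growth factor axis, 3 were high, all of them binding proteins, led by Igfbp2 with 11.01, 10.64, 11.02 and 11.14. Igf2 read 5.98, 6.43, 4.23 and 4.34 and Igfbp5 read 7.62, 8.03, 3.62 and 3.90, and these were the lowest of the list by mean percentile.

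Genes of proliferation and of the p53 response were read side by side. Of all genes 10.5% were high, 49.9% intermediate, 17.3% at background and 22.4% in different classes. The share of intermediate genes on the list of G2 and mitosis was near that of all genes. Of 26 DNA replication genes, 8 were high, 8 intermediate and 10 in different classes. Of 31 genes of G2 and mitosis, 10 were high, 16 intermediate and 5 in different classes, and neither list had a member at background in both tables. Pcna, the sliding clamp of DNA polymerase, read 12.10, 11.97, 11.13 and 11.10, and Rrm2, which makes deoxynucleotides, read 11.16, 10.95, 10.10 and 10.13. Cdc20, an activator of the anaphase complex, read 11.09, 11.30, 10.68 and 10.77. Of 18 G1 genes, 4 were high and 12 intermediate, led by the inhibitor Cdkn1a and by Ccnd1, the cyclin induced by growth factors. Cdkn1a read 11.30, 11.33, 12.02 and 12.07 and Ccnd1 read 11.70, 11.93, 11.13 and 11.04. Cdkn1c, an imprinted inhibitor, was the lowest of them with 6.09, 5.83, 5.08 and 5.13. Of 20 p53 targets of arrest and death, 9 were high, 9 intermediate and 2 in different classes, with a median percentile of 88.9. Perp, a target that is also a desmosome protein, read 12.93, 12.63, 12.47 and 12.51. Fas, a death receptor, was the lowest with 5.24, 5.78, 4.91 and 4.76.

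Metabolic, stress and protein synthesis lists were read against the 10.5% of all genes that were high. Of 33 respiratory chain subunits, 31 were high. Of 16 glycolysis genes, 11 were high, led by Ldha (12.96, 13.12, 12.52 and 12.55) and Pgk1 (12.65, 12.67, 12.29 and 12.28), and the glucose transporter Slc2a3 was the lowest with 5.13, 5.51, 4.18 and 3.85. Of 13 hypoxia response genes, 6 were high and 6 intermediate. Car9, a carbonic anhydrase that marks strong hypoxia, was the lowest of these with 7.57, 7.14, 5.93 and 5.70. Of 17 cholesterol synthesis genes, 8 were high, and of 17 NRF2 targets, which answer oxidative stress, 7 were high. Of 12 metallothioneins and heat shock genes, 10 were high, led by Hspa8 and Hspb1. Of 40 ribosomal protein genes, 34 were high. The lowest were Rpl39l and Rpl3l, tissue-restricted copies of ribosomal genes. Rpl37, named after its values were seen, was high in the Twist1 table and far lower in the other with 10.28, 10.12, 4.50 and 4.43, although the probe set has the same number in both. Of 13 translation factors 12 were high, and of 21 cytoskeletal genes 20 were high.

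Inflammatory genes were counted in several lists. Of 30 chemokines and interleukins, 5 were high (Cxcl1, Cxcl2, Il1f9, Tslp and Il24), 19 intermediate and 6 in different classes. Cxcl1 read 12.29, 12.05, 11.10 and 11.36 and Cxcl2 read 11.56, 10.97, 10.92 and 11.21. Il34, a ligand of the receptor Csf1r, was the lowest with 5.43, 5.34, 3.85 and 3.84. Of 19 interferon-induced genes on the list, 0 were high and 14 intermediate, beside 10.5% and 49.9% of all genes. Their median percentile was 53.9 beside 61.5 over all genes. The list does not hold Ifitm3, Ifitm2, Ifi30 and Ifi202b, which were high in both tables. Ddx58, an RNA sensor, led the listed genes with 7.27, 7.14, 7.17 and 6.98. Antigen presentation by MHC class I was high for 5 of 9 genes, with H2-K1 at 12.27, 12.33, 12.47 and 12.46. Of 22 S100 and antimicrobial genes, 8 were high. S100a6 read 13.28, 13.21, 11.81 and 11.82, and Saa1, an acute phase protein, was at background. Of 23 matrix proteases and inhibitors, 5 were high, 8 intermediate and 9 in different classes. Adamts1, a secreted metalloproteinase, read 11.84, 11.52, 9.98 and 9.85, and Mmp1a was at background.

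Of 22 follicle and tumour stem cell genes, 14 were intermediate, 2 high, 1 at background and 5 in different classes. Of all genes 49.9% were intermediate and 10.5% high, and the share of high genes on the list was near that background. Cd44, a hyaluronan receptor, read 12.27, 12.27, 11.50 and 11.56, and Plet1, a marker of the upper follicle, read 11.99, 11.36, 10.94 and 11.23. Sox2, a factor of pluripotent cells, read 4.60, 6.20, 3.00 and 2.93, and it was above background only on the second Twist1 control.

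The 2 arrays of a table were not alike in all genes. Among 12023 genes above background in the Twist1 table, 209 (1.74%) differed by over 1 log2 unit, a factor of 2, between the Twist1 controls. Of these, 120 (0.998%) were higher on the second array and 89 (0.74%) on the first. Among 12967 genes above background in the Twist1/p53 table, 28 (0.216%) differed by that much, with 17 (0.131%) higher on the second array and 11 (0.0848%) on the first. Over all genes above background, 91.2% of Twist1 pairs and 98.0% of Twist1/p53 pairs lay within 0.5 log2 units. The high class was steadier, with 10 of 1736 genes over 1 log2 unit on the Twist1 controls and 0 on the others.

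Some keratins of mucosal and simple epithelia were higher on the second Twist1 control. Of 5 such genes above background, 3 differed by over 1 log2 unit and all 3 in that direction. Krt13, a mucosal keratin that marks progressing skin tumours, read 4.61 and 8.40 on the first and second Twist1 controls and 5.92 and 7.32 on the Twist1/p53 controls. It was also among the largest differences of the second pair. Krt4, its partner, read 5.47 and 7.25, and Krt18, of simple epithelia, read 5.80 and 7.42 on the Twist1 controls. The EMT regulators Twist1, Twist2 and Foxc2 were 3 of 9 above background, and all 3 were higher on the same array. Twist2 read 4.70 and 6.06 and Foxc2 read 4.21 and 5.81 there. The stem cell genes Prom1, Sox2 and Cd34 were 3 of 21, again higher on that array, and Prom1 read 5.08 and 7.73. Cd34 was named here after its values were seen, and read 7.48 and 8.92. The largest differences of all in this direction were those of Slc15a2, a peptide transporter, with 5.27 and 9.46, Krt13, and Cldn8, a claudin, with 4.96 and 8.67. Fabp4, a fatty acid binding protein, read 8.96 and 12.01.

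Some antimicrobial and desmosomal genes were higher on the first Twist1 control. Of 19 S100 and antimicrobial genes above background, 5 differed by over 1 log2 unit and all 5 in this direction. S100a8 and S100a9, the subunits of calprotectin, read 13.44 and 11.92 and 13.55 and 11.62. Defb3, a defensin, read 6.49 and 3.86. Of 29 chemokines and interleukins, 7 passed 1 log2 unit, with 4 higher on the first array and 3 on the second. Il1f6, an interleukin 1 relative of keratinocytes, read 8.80 and 6.16, and Cxcl5, a chemokine for neutrophils, read 10.31 and 8.04, both higher on the first. Of 18 desmosome and adherens junction genes, the 3 suprabasal cadherins Dsg1a, Dsg1b and Dsc1 differed, all in this direction. Dsg1b read 8.99 and 7.42. Other members of the leukocyte lists went both ways. The MHC class II genes H2-Aa and H2-Ab1 were higher on the second array, with H2-Aa at 5.78 and 7.19. Ltf, of the neutrophil list, was too, with 4.50 and 5.83. Cd5, of the T and NK cell list, was higher on the first array with 5.88 and 4.50, while Ptprc read 4.06 and 4.49. The part of leukocytes in these differences was not tested.

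Among the 11295 genes above background in both tables, 8 differed by over 1 log2 unit within both pairs, in either direction. Over all genes above background in a table, 1.74% differed by that much between the Twist1 controls and 0.216% between the Twist1/p53 controls. The direction was not always shared: Krt79 was higher on the second Twist1 control but on the first Twist1/p53 control. Of 32 cornified envelope genes above background in the Twist1/p53 table, 6 were over 1 log2 unit higher on its second array and 0 on the first. They were Rptn, Lce1a2, Lce1d, Lce1h, Lce1i and Lce3a. Lce1d, of the late cornified envelope family, read 4.72 and 6.33. Of all 35 measured, 31 read higher on the second array, beside 45.7% of all genes. The Lce genes lie in a cluster of near copies, so their probe sets are not independent readings. On the Twist1 controls 15 of the 35 read higher on the second array, beside 55.2% of all genes. Mmp13, a collagenase, read 7.91 and 9.21 on the Twist1/p53 controls. Higher on the first array were Far2, an enzyme of wax lipids, with 7.45 and 4.81, Krt79, a keratin of the follicle duct and sebaceous gland, with 8.74 and 6.39, and Lcn2, an iron-carrier binding protein, with 6.88 and 5.06. Fa2h, another lipid enzyme, was also among the 10 largest.

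**Figure D4:**
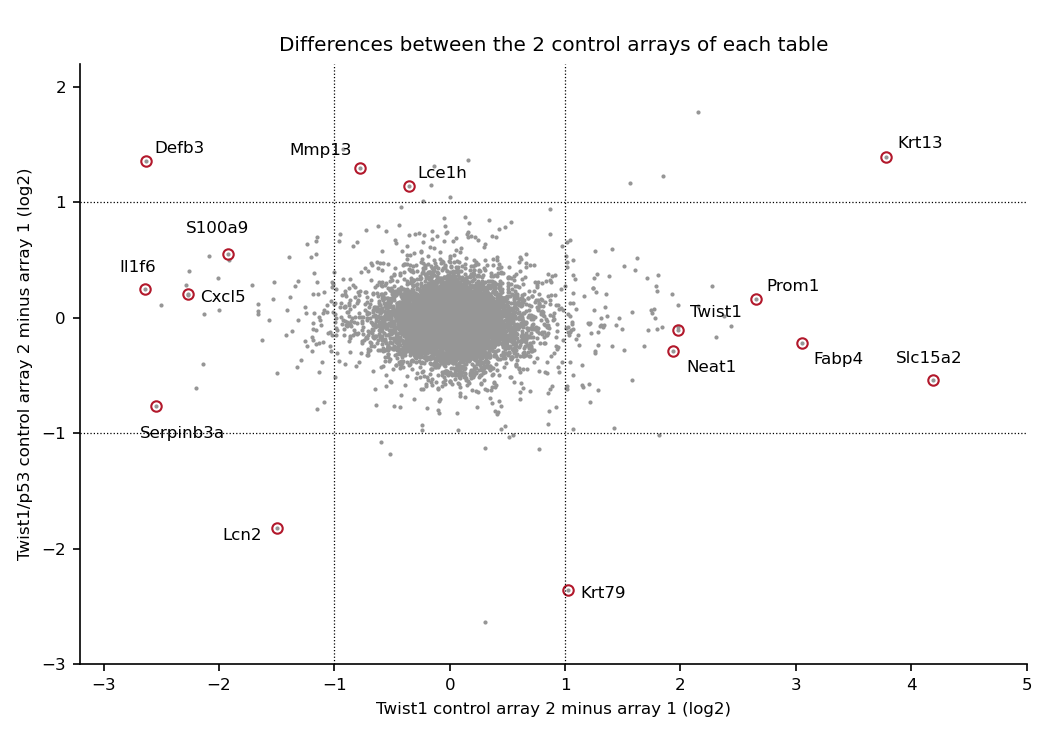
Log2 difference between the second and first control array of the Twist1 table (horizontal) and of the Twist1/p53 table (vertical) for each gene above background in both, with dotted lines at 1 log2 unit and some genes marked. The spread is wider along the horizontal axis, and Krt13, Lcn2, Defb3 and Krt79 lie beyond 1 log2 unit on both axes.

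Between the tables, 1085 of 13695 genes above background in at least 1 of them (7.92%) differed by over 25 percentile points. Of these, 508 (3.71%) ranked higher on the Twist1/p53 controls and 577 (4.21%) on the Twist1 controls, and 64.1% of genes lay within 10 points. Array type, normalization, mice and the floxed p53 allele all change together here and cannot be told apart. Cornified envelope genes were, by number, the list with the most members in 1 direction, with 8 of 33 higher on the Twist1/p53 controls and 1 higher on the Twist1 controls. The 8 were Lor, Flg, Rptn and 5 Lce1 genes, and the 1 was Sprr3, a mucosal member, with 4.82, 6.42, 3.68 and 3.72. Fibroblast markers had 4 of 11 higher on the Twist1/p53 controls (Col1a1, Col1a2, Col6a1 and Dpt) and 0 higher on the other. Among 30 chemokines and interleukins the direction was the opposite, with 4 over 25 points higher on the Twist1 controls and 0 on the Twist1/p53 controls. Cxcl5 read 10.31, 8.04, 4.16 and 4.37 and Il6 read 8.26, 7.29, 4.25 and 3.95. Of 10 retina and testis genes, which have no known place in skin, 4 were past 25 points and higher on the Twist1/p53 controls.

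The largest single differences include genes of no shared theme. H1f4, a linker histone, moved from percentile 23.7 to 96.3, and Hba-a2, an alpha globin, from 42.4 to 98.2. Hba-a2 read 5.17, 4.85, 11.43 and 11.38. Its near copy Hba-a1, named in the Twist1 annotation only, read 4.50, 4.26, 3.78 and 3.67 and was at background in both tables, so which globin gene is read is uncertain. The beta globin Hbb-b2 read 4.97, 5.13, 8.09 and 9.46. In the opposite direction, Zbtb44 moved from percentile 79.5 to 1.74 and Clec2d, a lectin, from 85.3 to 16.1.

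Promoter sequence varied with the signal of a gene. A RefSeq promoter was matched for 13103 of the 16551 genes, by the most upstream start listed. TATAAA on the strand of the gene, 40 to 20 bases before the start, was found in 2.56% of these genes and in 2.21% of all 27025 promoters of the table. The share was 4.97% of background genes (108 of 2173), 1.51% of intermediate genes (99 of 6553) and 2.76% of high genes (40 of 1450). By finer steps of the mean percentile it went from 6.40% below percentile 10 to 0.568% between percentiles 70 and 80. It was 4.92% of the 122 genes above percentile 99, a share that rests on few genes. Of 31 cornified envelope genes with a promoter, 13 (41.9%) held it, and some of these share a sequence by gene duplication. GGGCGG on either strand of the 250 bases before the start, the GC box, was found in 62.9% of high, 58.3% of intermediate and 27.2% of background genes. The AP-1 letters TGAGTCA or TGACTCA were found in 3.72%, 3.20% and 5.02% of these classes and in 8 of 31 cornified envelope genes (25.8%). CCAAT on either strand differed little, with 37.4%, 35.9% and 37.2%. These are matches of letters, and none is shown to be a site in use.

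**Figure D5:**
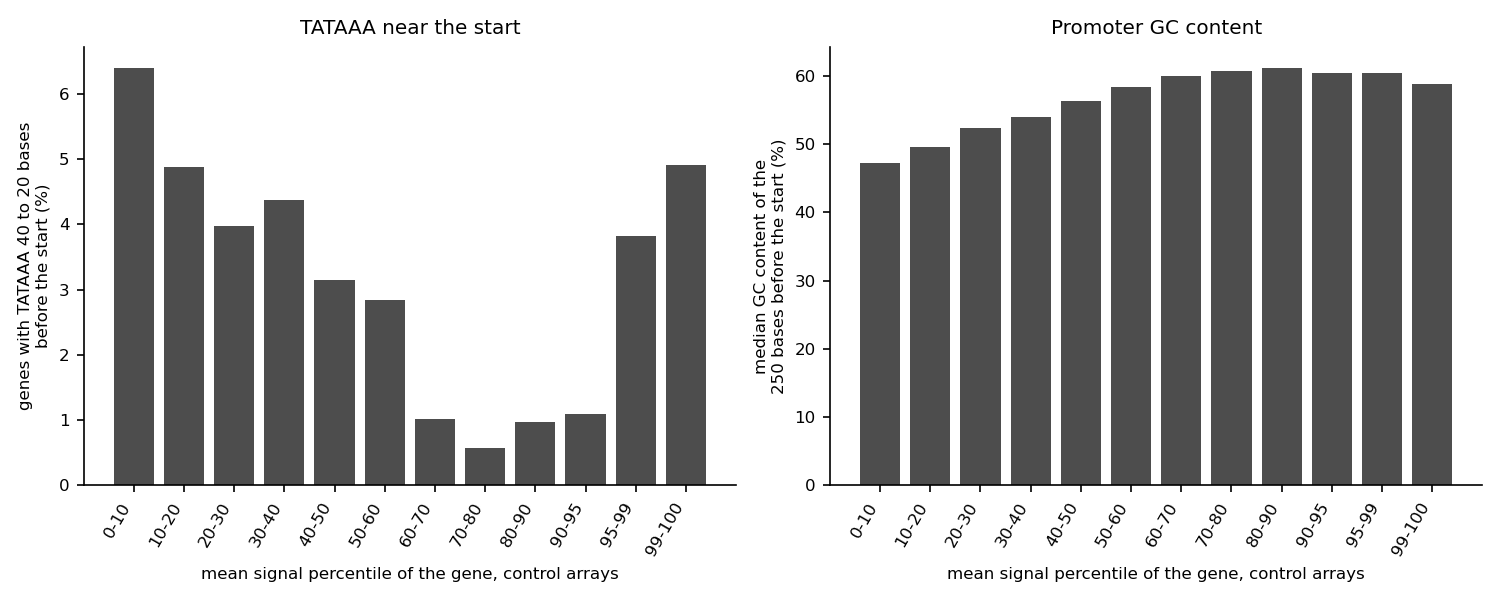
Share of genes with TATAAA 40 to 20 bases before the start (left, in %) and median GC content of the 250 bases before the start (right, in %), for genes grouped by mean signal percentile over both tables. TATAAA is most frequent at both ends, with 6.40% below percentile 10 and 4.92% of the 122 genes above percentile 99, which is few genes. GC content goes from 47.2% below percentile 10 to 61.2% between percentiles 80 and 90 and to 58.8% above percentile 99.

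Few non-coding RNAs reached the high class. Of 1227 long non-coding RNA genes, 9 (0.733%) were high and 46.6% at background, beside 11.4% and 14.6% of 15145 protein-coding genes. Xist, the RNA of the inactive X chromosome, read 11.81, 11.88, 10.92 and 10.89, while the Y-linked genes Eif2s3y, Uty and Zfy2 were at background. The remaining gene of 5 measured on the sex-linked list was above background in the Twist1/p53 table only. Neat1, the scaffold of paraspeckles, read 10.94 on the second Twist1 control, which was 1.94 log2 units above the first, and 10.58 and 10.29 on the Twist1/p53 controls. The others in this class were Norad, Zfas1, Gas5, Snhg5, Snhg6 and a pair of unnamed transcripts.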

How the data were processed

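Total RNA of sorted tumour epithelial cells was measured on 8 arrays, of which the 4 control arrays were used. The authors deposited log2 values per probe set in 2 tables. The log2 scale was read from the values (2.76 to 14.33 over the single control arrays), because no label or header states it. The software that summarised and normalized them was not given in the sources used here. Both arrays of a group had nearly the same median. Scanner files were not used here, so no spot could be checked for quality, and precision is limited by the number of arrays.

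The Twist1 table held 45101 probe sets (64 of them controls, left out) and in the Twist1/p53 table there were 45083 (104 controls, left out). Gene symbols came from the annotation of each platform and were updated by RefSeq (GRCm38.p6): 34945 had 1 gene symbol, 932 several and 9160 none in the Twist1 table, and 28864, 551 and 15564 in the other. The poorer annotation of the second table removed 1496 genes named in the first only. Tables were joined by probe set number without the PM letters of the second, and each gene was represented by the joined probe set with the highest mean percentile, which favours strong probe sets. A percentile is 100 times (rank minus 0.5) over the number of ranked probe sets. The 69 receptor genes and the p53 gene were left out.

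No test was made, because each table has 1 control group, and nothing says that the arrays of a group came from separate mice. Ranking and classes were tested on simulated data. The members and the 59 gene lists (896 of 1031 listed genes measured) were chosen with earlier results of these data known. Named are the 25 highest genes outside the ribosomal proteins, the 2 highest and lowest of each list described, the 10 largest differences each way within a table and between tables, and any member needed of the keratin, envelope, junction, EMT, cell type, ligand and receptor lists. Not every gene of this rule is printed. The promoters shown, the non-coding RNAs and genes marked as such were chosen after their values were seen. Python 3.11.15, numpy 2.4.6, pandas 2.3.3 and matplotlib 3.10.9 were used. Alternatives were other percentiles and background levels, medians over probe sets, leaving out each array, quantile normalization and other thresholds.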

Additional observations from a re-analysis of the deposited data

How the results depend on the processing

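Of 58 alternative values for 7 results, 43 stayed within 1.5 times the count given or, for the correlation, within the spread of the single-array correlations. Genes high in both tables numbered 781 at percentile 95, 3896 at percentile 80 and 1136 with the median over the probe sets of a gene, of which 1130 were among the 1736. Genes at background in both numbered 1553 with the 75th percentile of the receptor probe sets and 5502 with the 50th percentile of all probe sets. The correlation between tables was 0.883 over all joined probe sets and 0.868 over genes above background in both. At 1.5-fold and 4-fold, 723 and 27 genes differed between the Twist1 controls and 161 and 2 between the Twist1/p53 controls. At 15 and 40 percentile points, 2985 and 180 genes differed between the tables. Leaving out each of the 4 arrays in turn gave 1713 to 1741 high, 2730 to 2934 background and 8117 to 8302 intermediate genes, a correlation of 0.912 to 0.915, and 1092 to 1179 genes past 25 points. Without an array, 97.6% to 98.9% of the 1736 genes kept their high call. Adding the genes named in the Twist1 annotation only, chosen after seeing the data, gave 1865 high genes. No paired analysis was possible because the result comes from no test.

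With 2 arrays per table and no scanner files, the precision of a single gene is not known. Poly-A control transcripts read 8.36 and 9.26 on the Twist1 controls and 3.72 and 3.75 on the Twist1/p53 controls, and the 3′ minus 5′ signal of the Actb control probe sets was 0.63 and 0.63 against -0.25 and -0.25. These differ between the tables, and their part in the differences of rank was not tested.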

Other observations

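Probe sets of 1 gene did not always read alike. Of 1012 high genes with several joined probe sets, 89 (8.79%) also had a probe set at background in both tables. Among them were Hmgn1, a chromatin protein, Cox5b, a subunit of cytochrome c oxidase, Ybx1, an RNA-binding protein, and Mif, a cytokine, which were chosen after their values were seen.

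Neighbouring genes were compared in the order of RefSeq genes, with no test. In that order, the next measured gene was also high for 252 of 1732 high genes (14.5%, beside 10.5% of all). For background genes the share was 29.6%, beside 17.2% of all. Gene clusters of near copies, such as keratins, were not taken out. The longest runs held 4 high genes, and 1 of them was Rpl41, Pa2g4, Erbb3 and Rps26, which span ribosomal proteins, a growth regulator and the receptor Erbb3. Among the receptor genes that served as background, Vmn1r44, a vomeronasal receptor, read 6.40 and 6.82 on the Twist1 controls and 4.00 and 3.99 on the Twist1/p53 controls.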
